A study of Mus musculus with 21 samples.

Results

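Complement and coagulation genes were followed in whole kidneys of mice fed adenine, with and without an inhibitor of microbial trimethylamine formation. The set held 43 genes, listed by symbol, and 42 of them were among the 21657 genes with a row in either deposited table. It covered 20 complement genes and 23 genes of coagulation, its inhibitors, fibrinolysis and the thrombin-type receptors. Serpins were not in the list. A value could be assigned to 42 members, because Klkb1 (plasma prekallikrein) has no Ensembl identifier in the gene-name table.

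Complement is a cascade of plasma proteases and their substrates that marks surfaces for clearance. The classical arm starts with C1q bound to antibody or damaged surfaces, and the lectin arm works through MASP proteases. The alternative arm amplifies C3 cleavage through factors B and D and properdin. Coagulation is a parallel protease cascade in which tissue factor and factor VII activate factor X, thrombin converts fibrinogen to fibrin, and plasmin formed by the plasminogen activators dissolves it. Most circulating proteins of both cascades are made in the liver, while kidney tubules, endothelium and macrophages make some of them locally.

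All mice were female apoE knockouts on the C57BL/6J background, so the controls carried the same deletion, and were 18 weeks old after 14 weeks on their diets. The groups were Con (chow, n = 5), Ade (chow with adenine, which induces chronic kidney disease, n = 6) and Ade + IMC (adenine with iodomethylcholine, an inhibitor of the bacterial enzyme that makes trimethylamine, n = 6). The 4 mice on chow with IMC were not analysed here. Mice are named by the number in their titles, such as mouse 207, and its leading digit (2, 3 or 4) has no stated meaning. Apoe reads were 6.1 to 26.8 CPM (counts scaled to a common library size) in the 17 mice, and without a wild-type group they do not test the knockout.

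Reads assigned to genes numbered 7716126 to 11680809 per Con mouse, 5444833 to 7673215 per Ade mouse and 5728589 to 8305968 per Ade + IMC mouse. The labelled diet was checked on tubular injury markers (Havcr1, Lcn2 and Krt20), whose summed level was 1.68 to 5.14 CPM in Con, 203.0 to 917.3 CPM in Ade and 141.6 to 570.3 CPM in Ade + IMC mice. Kidney tubule and podocyte markers were present in every mouse, with sums of 15880 to 21910, 5325 to 11920 and 7893 to 13440 CPM, and 5 of 8 were lower in Ade than in Con mice. CPM were computed on library sizes adjusted by the trimmed mean of M values. Where members are ranked by level, CPM per kilobase of exons is used.

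The adenine diet was compared with chow first. Of the 39 members that passed the filter on low counts, 31 were higher and 7 lower in Ade than in Con mice at a Benjamini-Hochberg adjusted p below 0.1 in edgeR's quasi-likelihood test. The 4 members left out were Klkb1, Masp2, F2 and Plg. Over all 14612 genes tested, 35.1% were higher and 32.2% lower. The median log2 fold change was 2.19 over the members and 0.019 over all genes. Complement accounted for 16 higher and 3 lower of 19 tested (median 2.71), and coagulation for 15 higher and 4 lower of 20 (median 1.35). CPM ranges of the Ade and Con mice did not overlap for 29 of the 39, against 42.9% of all genes tested. The members whose ranges overlapped were C2, Cfd, Cd55, Cd59a, F5, Vwf, Thbd, Tfpi, Plau and F2r.

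**Figure D1:**
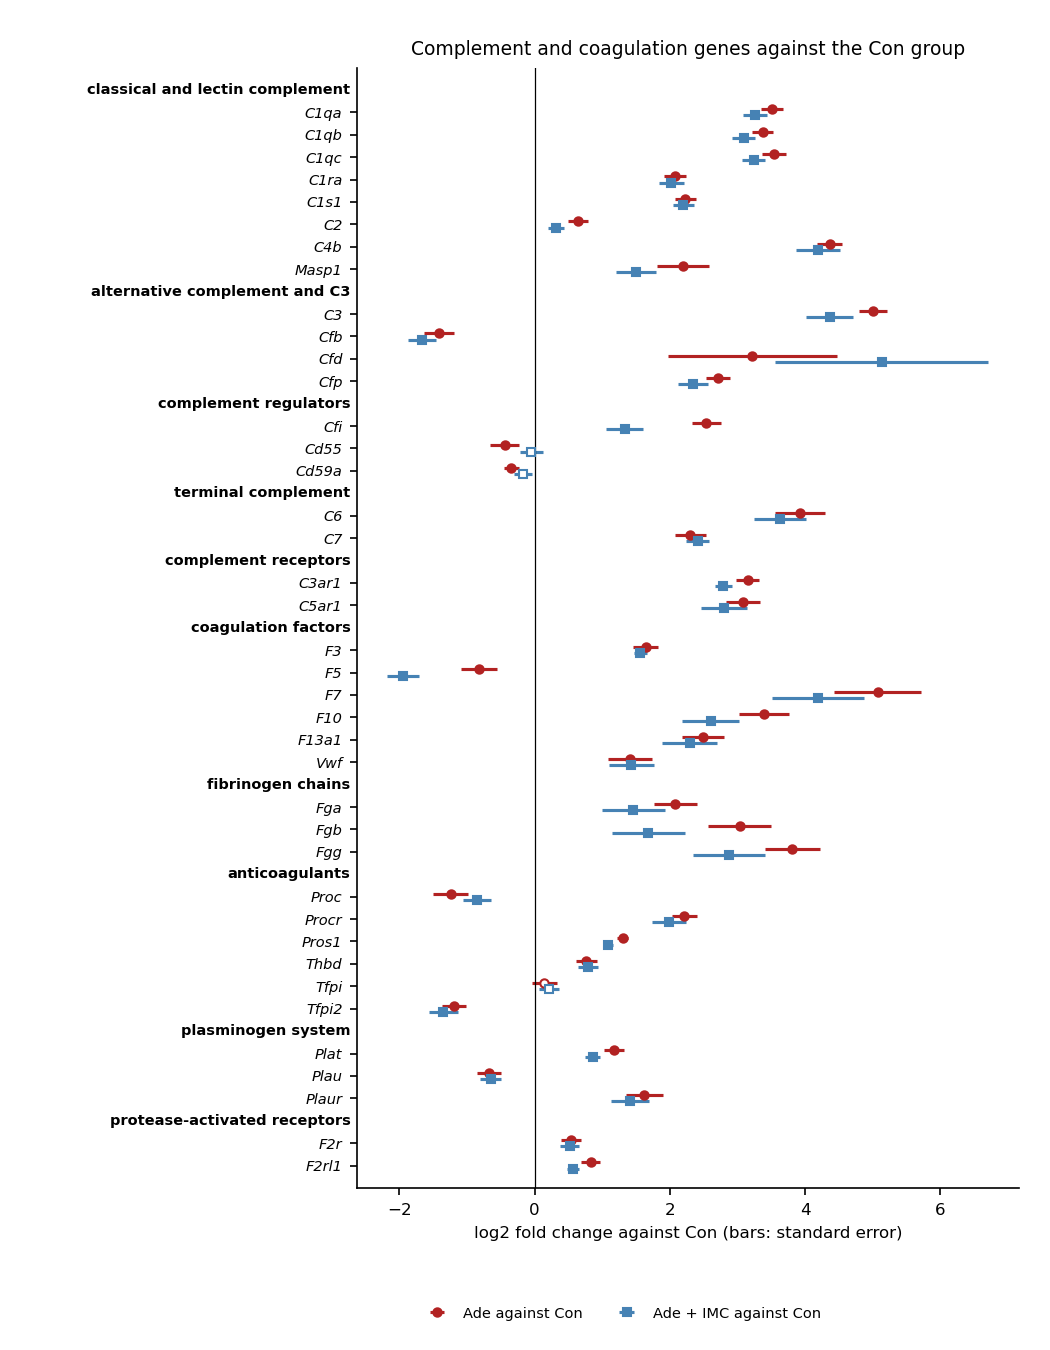
Log2 fold changes of the 39 tested members against Con, grouped by role, for Ade mice (red circles) and Ade + IMC mice (blue squares), with standard errors as bars and filled symbols where the adjusted p is below 0.1. Most symbols lie right of 0 in both comparisons, which share the Con mice, while Cfb, Cd55, Cd59a, F5, Proc, Tfpi2 and Plau lie left of it in both, Cd55 and Cd59a with open symbols for Ade + IMC.

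All 8 tested genes of the classical and lectin arms rose with adenine. C1qa, a chain of the C1q recognition molecule, was at 22.3, 21.9, 24.0, 20.6 and 29.0 CPM in the 5 Con mice. In the 6 Ade mice C1qa ran from 184.9 through a median of 282.4 to 333.2 CPM, so that every Ade mouse lay above every Con mouse. Its log2 fold change was 3.51 ± 0.16 (SE; adjusted p = 5.22e-09), an 11.4-fold difference. C1qc, the third chain, was at 17.5, 22.4, 20.3, 17.8 and 21.9 CPM in Con mice and at 154 to 290 CPM (median 247) in Ade mice, with a log2 fold change of 3.54 ± 0.17 (adjusted p = 7.53e-09). C1qb moved by nearly the same amount, 3.37 ± 0.16. The C1 proteases C1ra and C1s1 rose by 2.07 ± 0.16 and 2.23 ± 0.16 on the log2 scale.

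C4b, the fourth component that carries the classical and lectin signal to C3, showed the widest change of this arm. It was at 3.78, 2.88, 2.71, 4.78 and 3.92 CPM in Con mice and at 56.3 to 92.4 CPM (median 77.1) in Ade mice, and its log2 fold change was 4.36 ± 0.18 (adjusted p = 2.14e-09). C2, the protease partner of C4b, was at 20.3, 17.3, 19.9, 16.8 and 25.6 CPM in Con mice and 23.4 to 37.7 CPM (median 30.2) in Ade mice. These ranges touched, and the log2 fold change of C2 was 0.64 ± 0.14 (adjusted p = 0.0016). Masp1, a lectin-arm protease, rose by 2.19 ± 0.38 from a Con mean of 0.899 ± 0.257 CPM (SD, n = 5). Masp2 fell under the filter, with 28 reads in total over the Con mice and 16 over the Ade mice.

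C3, on which all 3 arms converge, had the largest log2 fold change of the complement members. It was at 36.7, 45.1, 40.3, 63.2 and 50.9 CPM in Con mice, and the Ade mice ran from 1038 through a median of 1575 to 1805 CPM. The log2 fold change was 5.0 ± 0.21 (adjusted p = 2.16e-09), which is 31.9-fold. Per kilobase of exons, C3 went from a mean of 9.19 CPM in Con to 292 CPM in Ade mice, the first place among the members, ahead of C1qa at 258, Plau at 244 and C1qb at 227. Cfp, properdin, which stabilises the alternative convertase, rose from 6.47, 8.22, 6.63, 5.81 and 8.36 CPM in Con mice to 33.1 to 65.9 CPM (median 43.3) in Ade mice, a log2 fold change of 2.71 ± 0.18 (adjusted p = 6.77e-08).

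Cfb, the alternative-arm protease factor B, went the other way, and its values by mouse are given for that reason. It was at 14.4, 12.7, 9.47, 14.3 and 11.4 CPM in Con mice and at 2.04 to 6.76 CPM (median 4.76) in Ade mice, below every Con mouse. Its log2 fold change was -1.41 ± 0.22 (adjusted p = 0.000119). Cfb and C2 are neighbours on chromosome 17 (GRCm38), and 2246 and 1817 of their exonic bases are shared with other annotated genes, chiefly the transcript Gm20547 on the same strand. How reads there were divided was not settled, so both values are uncertain. Genes on the other strand share 1817 of the 3307 exonic bases of Masp2. They also share shorter stretches of C1s1 (576 bases), Plg (420), Fgg (115), Cd55 (102) and F13a1 (74).

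**Figure D2:**
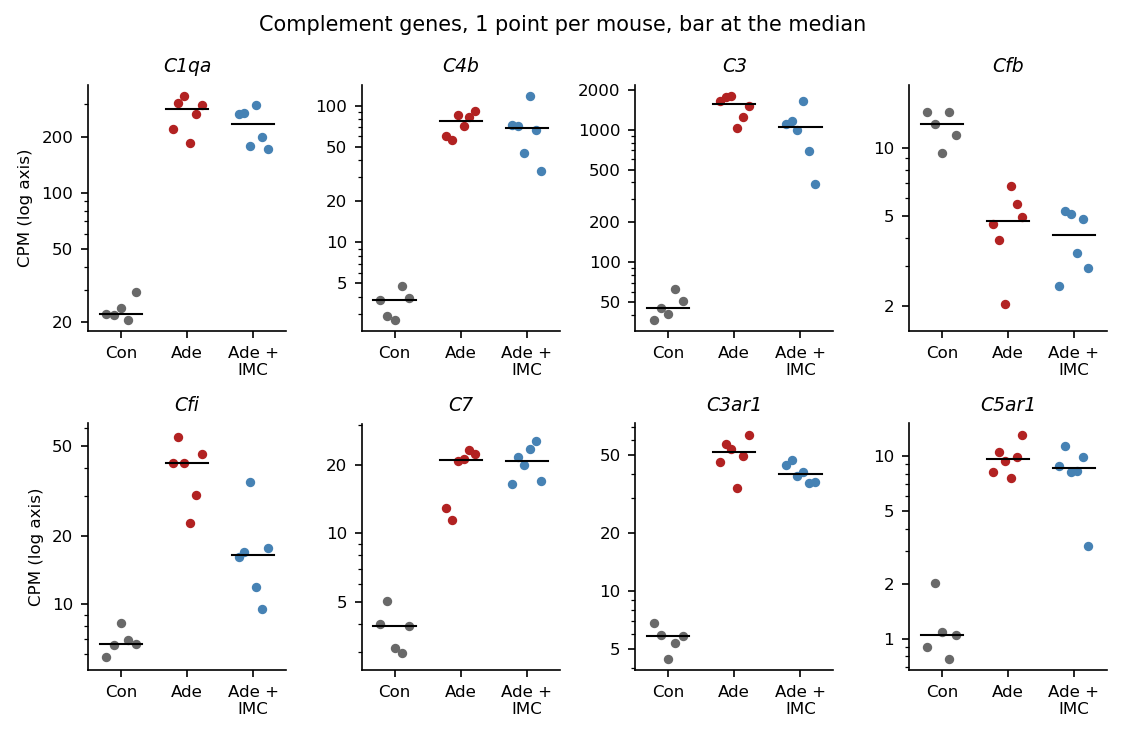
Level of 8 complement genes in CPM on a log axis, with 1 point per mouse and a bar at the group median. The Ade and Con mice do not overlap in any of the 8 panels, Cfb alone is lower in Ade mice, and Cfi in Ade + IMC mice lies mostly between the other groups.

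Cfd, factor D (adipsin), which cleaves factor B and is a well known adipocyte product, has a call that rests on single mice. It was at 0.298, 6.49, 0, 0 and 4.57 CPM in Con mice and between 0 and 88.9 CPM (median 6.75) in Ade mice. The ranges overlapped widely and the log2 fold change was 3.22 ± 1.25 (adjusted p = 0.0387). Without Ade mouse 207, which held the 88.9 CPM, it was 1.57 (adjusted p = 0.204), and with DESeq2 it was 3.12 (adjusted p = 0.135). Without Con mouse 202 it was 4.09 (adjusted p = 0.0323). Adipoq, the adipocyte hormone adiponectin, was at 17.4 CPM in mouse 207 and at most 2.74 CPM in the other Ade and Con mice, and Plin1 was at 18.5 CPM in mouse 207. In Ade + IMC mice Cfd ran from 0.227 through 23.4 to 307 CPM, and the 3 mice with the most Cfd, 212, 211 and 410, were also those with 68.4, 19.6 and 11.9 CPM of Adipoq. Without mouse 212 alone the log2 fold change of Cfd in Ade + IMC against Con mice was 3.81, and without Con mouse 202 it was 5.99. Leaving out mice 211, 212 and 410 together left mice 310, 311 and 412 of that group. It turned the log2 fold change of Cfd in Ade + IMC against Con mice from 5.13 ± 1.58 (adjusted p = 0.0139) to -1.28 (adjusted p = 0.479). Mouse 207 and these 3 mice hold the highest Cfd values of their groups, so that leaving them out lowers the Cfd fold by construction. The part of adipocyte RNA in the Cfd values was not tested.

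**Figure D3:**
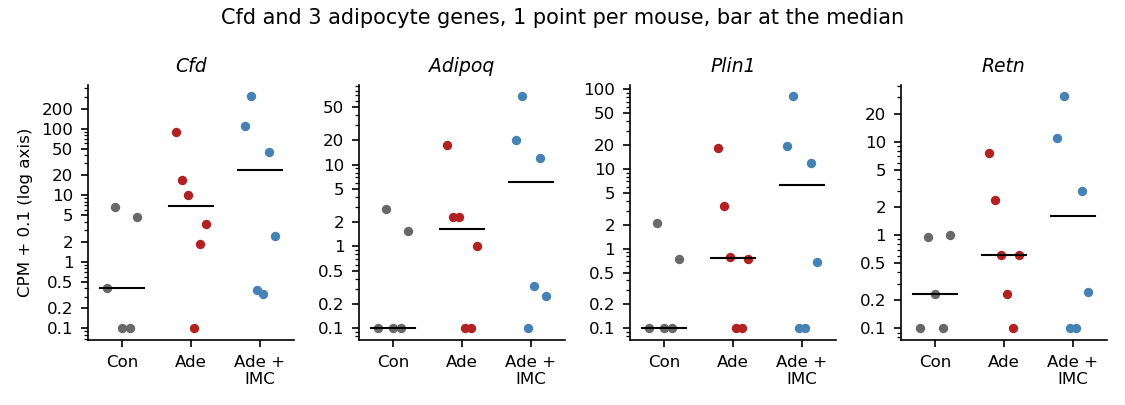
Cfd and the adipocyte genes Adipoq, Plin1 and Retn by mouse, as CPM + 0.1 on a log axis with a bar at the median. The mice with the highest Cfd in the Ade and Ade + IMC groups also have the highest values of the other 3 genes.

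The regulators of complement did not move together. Cfi, factor I, the protease that inactivates C3b and C4b, was at 5.87, 6.63, 8.26, 6.97 and 6.66 CPM in Con mice and at 22.7 to 54.8 CPM (median 42.1) in Ade mice, a log2 fold change of 2.54 ± 0.21 (adjusted p = 4.07e-07). Cd59a, a membrane inhibitor of the terminal pore, was at 42.7, 46.6, 48.6, 33.9 and 41.0 CPM in Con mice and 27.0 to 38.9 CPM (median 33.3) in Ade mice. It fell by 0.35 ± 0.11 on the log2 scale (adjusted p = 0.0142), with overlapping ranges. Cd55, decay-accelerating factor, was at 18.2, 14.3, 12.9, 15.9 and 12.5 CPM in Con and at 6.52 to 14.2 CPM (median 11.7) in Ade mice. Its log2 fold change of -0.44 ± 0.21 had an adjusted p of 0.0842. That call was lost (adjusted p 0.11 to 0.201) on leaving out any 1 of Con mice 201, 202 and 302 or Ade mice 207, 208 and 408, and with upper-quartile scaling (adjusted p = 0.122).

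Both tested members among the terminal pore components, C6 and C7, rose. C6 was at 0.597, 0, 0.541, 1.03 and 0.522 CPM in Con mice and at 5.49 to 10.5 CPM (median 8.73) in Ade mice, a log2 fold change of 3.92 ± 0.37 (adjusted p = 1.4e-06). C7 was at 3.98, 5.05, 3.11, 2.97 and 3.92 CPM in Con mice and at 11.5 to 23.4 CPM (median 21.1) in Ade mice, a log2 fold change of 2.3 ± 0.23 (adjusted p = 2.05e-06). C8a, a pore component outside the member list that was picked out after its values were seen, went the other way. It was at 92.2, 78.6, 88.1, 71.8 and 83.2 CPM in Con mice and at 1.79 to 33.1 CPM in Ade mice, and fell by 2.85 ± 0.47 on the log2 scale (adjusted p = 0.000156). The receptors for the small fragments C3a and C5a, which leukocytes use as chemotactic signals, rose as well. C3ar1 was at 6.86, 5.91, 4.47, 5.42 and 5.88 CPM in Con and at 33.9 to 63.9 CPM (median 51.7) in Ade mice (log2 fold change 3.15 ± 0.17, adjusted p = 1.25e-08). C5ar1 was at 0.895, 2.02, 1.08, 0.774 and 1.04 CPM in Con and at 7.57 to 13.1 CPM (median 9.63) in Ade mice (3.08 ± 0.24, adjusted p = 2.89e-07). No Con mouse reached the lowest Ade mouse for C6, C7, C3ar1 or C5ar1.

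Markers of other cell types moved over the same mice. Of 10 macrophage markers, 9 were higher and Mertk was lower in Ade mice, and their summed level was 313 to 345 CPM in Con, 1174 to 1853 CPM in Ade and 1059 to 1672 CPM in Ade + IMC mice. C1q chains, C3ar1, C5ar1, Cfp and F13a1 are known macrophage products. All 6 fibroblast markers rose, with sums of 250.9 to 314.7, 2019 to 2545 and 1507 to 2250 CPM, and so did 7 of 7 T and B cell markers (6.63 to 11, 45.9 to 219.5 and 49.0 to 392.4 CPM) and 3 of 3 tested neutrophil markers (1.44 to 3.36, 20.8 to 41.1 and 12.1 to 48.0 CPM). None of these lists overlapped between Con and Ade mice. More cells of a type and more RNA per cell cannot be told apart in whole kidneys, and the part of cell numbers in the members' values was not tested.

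Among the coagulation factors, 5 of 6 tested genes rose. F3 encodes tissue factor, the membrane trigger of clotting, and it rose from 14.8 to 16.0 CPM in Con mice to 33.5 to 71.8 CPM in Ade mice (log2 fold change 1.64 ± 0.19, adjusted p = 7.1e-06). F7, the protease that binds tissue factor, was at 0.199, 0, 0.271, 0 and 0 CPM in Con mice, at most 2 reads per mouse. It was at 1.35 to 7.48 CPM (median 3.35) in Ade mice. The fitted log2 fold change of F7 was 5.07 ± 0.65 (adjusted p = 1.9e-05), and 5.66 without Con mouse 301. F10, the protease that makes thrombin, was at 1.09, 0.577, 0.677, 0.645 and 0.392 CPM in Con and at 2.57 to 10.04 CPM (median 7.76) in Ade mice (3.39 ± 0.37, adjusted p = 4.62e-06). F13a1, the fibrin crosslinking enzyme, was at 0.597, 0.865, 0.948, 1.03 and 0.653 CPM in Con and at 2.55 to 6.76 CPM (median 4.39) in Ade mice (2.49 ± 0.31, adjusted p = 1.62e-05).

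Vwf, the platelet-binding protein of endothelium, rose by 1.41 ± 0.33 (adjusted p = 0.00234), from 5.09 to 15.3 CPM in Con mice to 12.2 to 42.8 CPM in Ade mice, with overlapping ranges. The summed endothelial markers overlapped too, at 456.1 to 714.8 CPM in Con and 308.8 to 602.6 CPM in Ade mice, and 3 of 6 of them (Kdr, Tek and Emcn) fell. F5, the cofactor of factor X, was the 1 of these 6 tested members that fell. It was at 14.2, 11.5, 8.53, 15.1 and 6.66 CPM in Con and at 4.08 to 8.77 CPM (median 6.08) in Ade mice, a log2 fold change of -0.82 ± 0.26 (adjusted p = 0.0147). Prothrombin, F2, did not enter the fit, since it was not listed for the Con mice and had 1 read in total over the Ade mice. Plasminogen, Plg, had 3 reads over the Con mice and 4 over the Ade mice.

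The 3 fibrinogen chains are encoded by neighbouring genes within 42140 bases of chromosome 3. Their upstream sequences are shown because the 3 chains moved together across mice. The sequences are from RefSeq (GRCm38.p6) on the strand of each gene, 5′ to 3′, with capitals for CTGGGA, known as the core of interleukin-6 response elements in fibrinogen promoters. Fgg (chr3:83007474-83007723, plus strand), Fga (chr3:83025903-83026075, plus strand) and Fgb (chr3:83049864-83050113, minus strand) each held 1 match. Fgg and Fgb are shown for the 250 bases before the RefSeq start, and Fga for 173 bases that end at the GENCODE gene start, which lies before the RefSeq start of Fga.
Fgg: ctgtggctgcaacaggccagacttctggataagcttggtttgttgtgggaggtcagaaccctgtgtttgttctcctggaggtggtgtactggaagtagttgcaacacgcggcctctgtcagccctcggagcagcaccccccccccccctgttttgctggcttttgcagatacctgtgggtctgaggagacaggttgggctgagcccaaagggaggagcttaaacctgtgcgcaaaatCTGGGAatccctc
Fga: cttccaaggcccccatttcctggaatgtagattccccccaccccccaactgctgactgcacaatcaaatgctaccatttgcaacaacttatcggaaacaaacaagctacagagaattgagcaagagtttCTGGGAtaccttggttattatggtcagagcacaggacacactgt
Fgb: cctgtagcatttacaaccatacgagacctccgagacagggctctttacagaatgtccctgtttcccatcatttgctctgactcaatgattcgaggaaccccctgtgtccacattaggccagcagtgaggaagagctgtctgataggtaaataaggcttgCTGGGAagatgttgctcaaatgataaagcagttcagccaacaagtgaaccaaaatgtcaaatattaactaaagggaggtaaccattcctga

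Of the 30 members with a RefSeq upstream sequence, 16 held CTGGGA on either strand within 250 bases before the start, and 27.0% of 32851 promoters in the table did. TTCNNNGAA, the spacing bound by STAT factors, was found in 5 of the 30, with Fga and Fgb among them, and in 7.02% of all promoters. GGNNNTTCC, an NF-κB type sequence, was found in 7 of the 30, with Fgb among them, and in 15.7% of all. The TATA box TATAAA was found in 4 of the 30 and in 12.4% of all. A member was counted if any of its promoter entries matched, while the shares over all are per promoter entry. Genes with several entries have more chances of a match, so members and promoters were not counted alike. A match is a description of the letters and does not show binding. The members without an entry were C1qa, C2, C4b, Masp1, Cfb, Cfi, Vwf, Proc, Thbd, Plat, Plau, Plg and F2rl1.

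All 3 chains rose with adenine. Fga was at 31.3, 35.2, 53.3, 39.6 and 41.9 CPM in Con mice and at 60.7 to 267.2 CPM (median 183) in Ade mice, a log2 fold change of 2.08 ± 0.32 (adjusted p = 7.8e-05). Fgb was at 2.98, 5.77, 3.92, 5.55 and 3.79 CPM in Con and at 10 to 55.6 CPM (median 40.1) in Ade mice (3.03 ± 0.46, adjusted p = 8.8e-05). Fgg was at 6.96, 11.97, 10.3, 11.9 and 12.02 CPM in Con and at 39.9 to 251.7 CPM (median 154) in Ade mice (3.81 ± 0.40, adjusted p = 3.84e-06). Every Ade mouse lay above every Con mouse for each chain.

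Within the Ade group the chains ordered the mice alike. Mice 207, 208 and 308 were the 3 highest and mouse 407 the lowest for all 3, with Fgg at 251.7, 186.7, 186.2 and 39.9 CPM. Within the Ade + IMC group mouse 310 was highest and mouse 311 lowest for all 3, with Fgg at 175.7 and 21.9 CPM. Each of the 3 tubular injury markers was also highest in mice 207, 208 and 308 and lowest in mouse 407 within the Ade group, with Havcr1 at 268.8, 240.1, 162 and 74.2 CPM. Within the Ade + IMC group their order followed the chains only in part. Havcr1 was highest in mouse 310 (218.2 CPM) and lowest in mouse 311 (21.8 CPM), Lcn2 was highest in mouse 212 (344.1 CPM, with 332.5 CPM in mouse 310) and lowest in mouse 311 (116.2 CPM), and Krt20 was highest in mouse 310 (19.6 CPM) and lowest in mouse 410 (2.14 CPM, with 3.64 CPM in mouse 311). F5 had its 3 lowest Ade values, 4.60, 4.37 and 4.08 CPM, in the same mice 207, 208 and 308. Mice 207, 208 and 308 are also all the Ade mice with leading digit 2 or 3, and the other Ade mice have digit 4. Within the Ade group, the split between these mice and the rest cannot be told apart from the leading digit. The part of tubular injury in these values was not tested. The hepatocyte markers did not share a direction. Over all 17 mice, in CPM that are not scaled to length, Ahsg was at most 0.718 CPM, Apoh at most 0.751 CPM and Apoa1 at most 2.03 CPM. Alb was at 2.42 to 28.8 CPM, Cyp2e1 at 79.1 to 166.6 CPM and Ttr at 39.0 to 294 CPM. Of the 3 tested in Ade against Con mice Ttr rose, Alb fell and Cyp2e1 did not pass, and the list summed to 138.9 to 249.8 CPM in Con, 236.6 to 437.7 CPM in Ade and 232.1 to 461.5 CPM in Ade + IMC mice. Whether liver RNA had a part in the fibrinogen values was not tested.

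**Figure D4:**
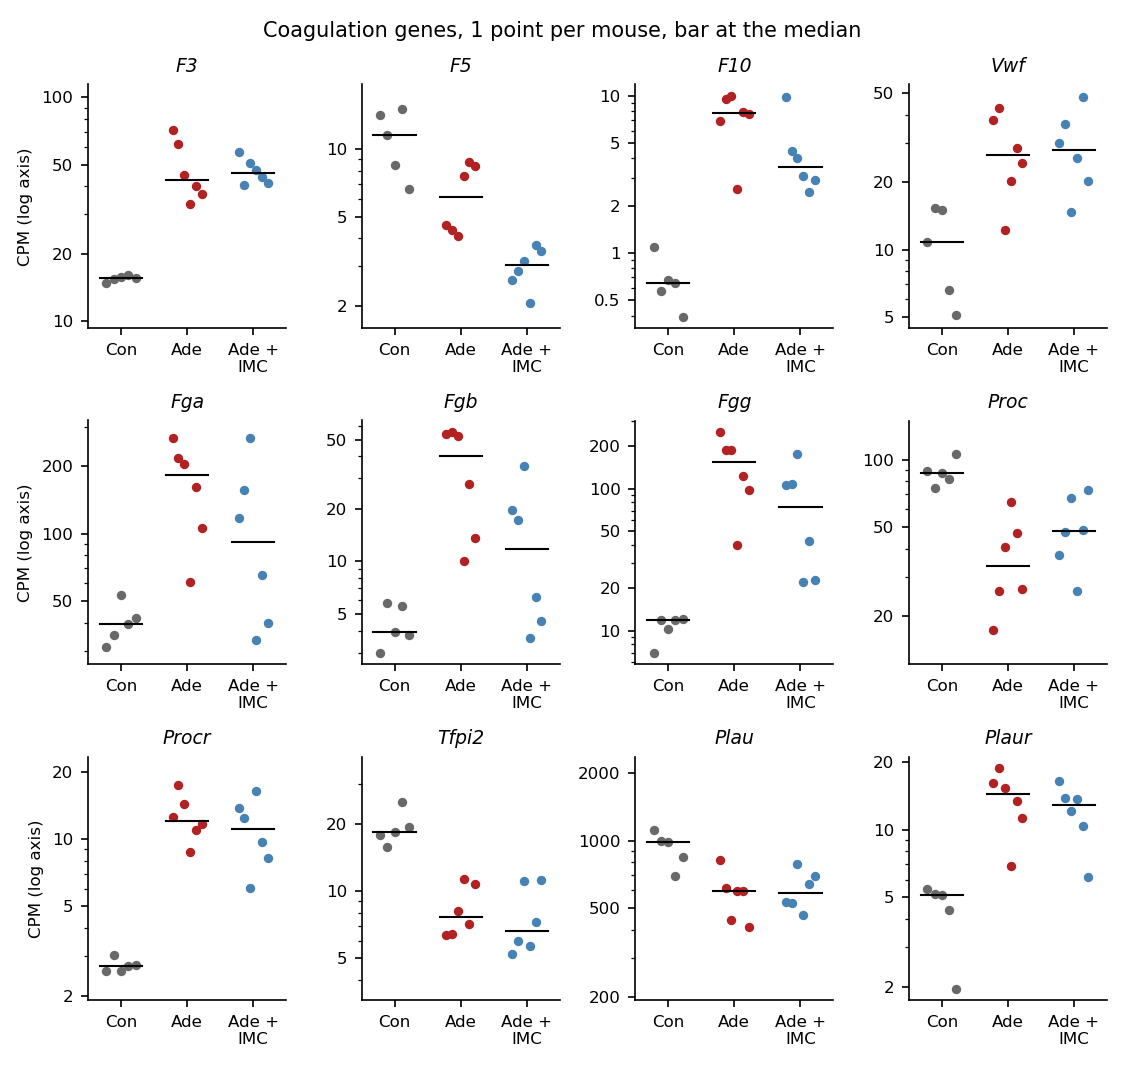
Level of 12 coagulation genes in CPM on a log axis, with 1 point per mouse and a bar at the group median. The fibrinogen chains spread widely within both adenine-fed groups, and F5 in the Ade + IMC mice lies below every Ade and every Con mouse.

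The anticoagulants split. Proc, protein C, an anticoagulant protease of plasma, was at 89.1, 75.0, 86.9, 82.0 and 106 CPM in Con mice, the second highest member there at 35.4 CPM per kilobase. It was at 17.2 to 65.01 CPM (median 33.5) in Ade mice, below every Con mouse, and its log2 fold change was -1.24 ± 0.26 (adjusted p = 0.00101). Its receptor gene Procr went the opposite way, from 2.59, 3.03, 2.57, 2.71 and 2.74 CPM in Con mice to 8.79 to 17.4 CPM (median 12.1) in Ade mice (2.21 ± 0.18, adjusted p = 4.46e-07). Pros1, protein S, the cofactor of protein C, was at 37.4, 36.0, 40.7, 40.4 and 34.4 CPM in Con and at 84.1 to 111 CPM (median 91.0) in Ade mice (1.30 ± 0.09, adjusted p = 6.59e-08). Thbd, thrombomodulin, which turns thrombin to protein C activation, rose by 0.76 ± 0.16 with overlapping ranges. Tfpi2, a Kunitz-type inhibitor, fell by 1.19 ± 0.18 on the log2 scale, from 15.7 to 24.9 CPM in Con to 6.39 to 11.3 CPM in Ade mice. Tfpi, the inhibitor of the tissue factor complex, was the 1 tested member that did not pass, at 0.14 ± 0.18 (adjusted p = 0.508).

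Of the plasminogen activators, Plat rose and Plau fell. Plau, urokinase, was the most abundant member of Con kidneys at 391.9 CPM per kilobase. It was at 1119, 991, 987, 694 and 846 CPM in Con mice and at 411.1 to 816 CPM (median 593.9) in Ade mice, with a log2 fold change of -0.68 ± 0.18 (adjusted p = 0.00449). Plat, tissue plasminogen activator, was at 90.4, 122, 113, 100.2 and 89.2 CPM in Con and at 182.9 to 307.4 CPM (median 207.7) in Ade mice (1.17 ± 0.15, adjusted p = 1.64e-05). The urokinase receptor Plaur was at 5.47, 5.19, 5.14, 4.39 and 1.96 CPM in Con and at 6.89 to 18.9 CPM (median 14.4) in Ade mice (1.62 ± 0.28, adjusted p = 0.000209). Ligand and receptor thus changed in opposite directions.

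Both protease-activated receptors rose. F2r, the thrombin receptor PAR1, was at 60.7, 71.5, 75.7, 79.1 and 52.1 CPM in Con and at 76.1 to 125 CPM (median 95.6) in Ade mice, with ranges that overlapped and a log2 fold change of 0.53 ± 0.15 (adjusted p = 0.00615). F2rl1, the trypsin-type receptor PAR2, was at 49.1, 49.3, 45.9, 40.1 and 42.5 CPM in Con and at 61.5 to 114 CPM (median 75.9) in Ade mice (0.83 ± 0.14, adjusted p = 0.000178). Of the 2 tested platelet and megakaryocyte markers Pf4 rose (log2 fold change 3.24) and Itga2b did not pass (-0.29). The sums of the 4 measured markers were 9.05 to 14.7 CPM in Con and 11.8 to 20.02 CPM in Ade mice.

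Other genes of the pathways, fixed as lists apart from the members, were counted in the same fit. Of 18 other complement genes tested, 9 rose and 4, with C8a among them, fell. Itgam, Itgax and Itgb2, which encode the leukocyte complement receptors CR3 and CR4, rose by 4.08 ± 0.22, 3.65 ± 0.22 and 3.32 ± 0.19 on the log2 scale. The value of Itgam is uncertain, since 3450 of its 5024 exonic bases are shared with Gm49368 on the same strand. Of 19 other coagulation genes tested, 7 rose and 8, with F8 among them (-0.98 ± 0.24), fell. The median log2 fold change was 0.511 over these complement genes and -0.132 over these coagulation genes, and the shares over all genes were the 35.1% higher and 32.2% lower given above. Fgl2, a membrane prothrombinase, rose by 2.68 ± 0.24, and F13b, the carrier subunit of factor XIII, and Cpb2, an inhibitor of fibrinolysis, fell by 2.51 ± 0.45 and 2.22 ± 0.28. The fall of F13b stands beside the rise of F13a1, its catalytic partner.

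IMC was then compared with no IMC in adenine-fed mice. In the limma test on log2 normalized counts, 0 of 39 members passed an adjusted p of 0.1, and 0.0% of the 14696 genes tested did. At an unadjusted p below 0.05 there were 8 members lower and 0 higher in Ade + IMC mice, where 3.35% of all genes were lower and 3.37% higher. The median log2 difference was -0.229 over the members and 0.0055 over all genes, with 27 members below 0 and 12 above. The edgeR test on the recovered reads called 0 members, and 0 genes over all. DESeq2 called 2 members, Cfi and F5, both lower, where 16 genes over all were called lower and 21 higher. With the leading digit of the mouse numbers as a block, limma called the same pair, and 0.408% of all genes were called lower. At an unadjusted p below 0.05 this blocked fit had 12 members lower and 2 higher, where 920 of the 14696 genes were lower and 1087 higher.

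**Figure D5:**
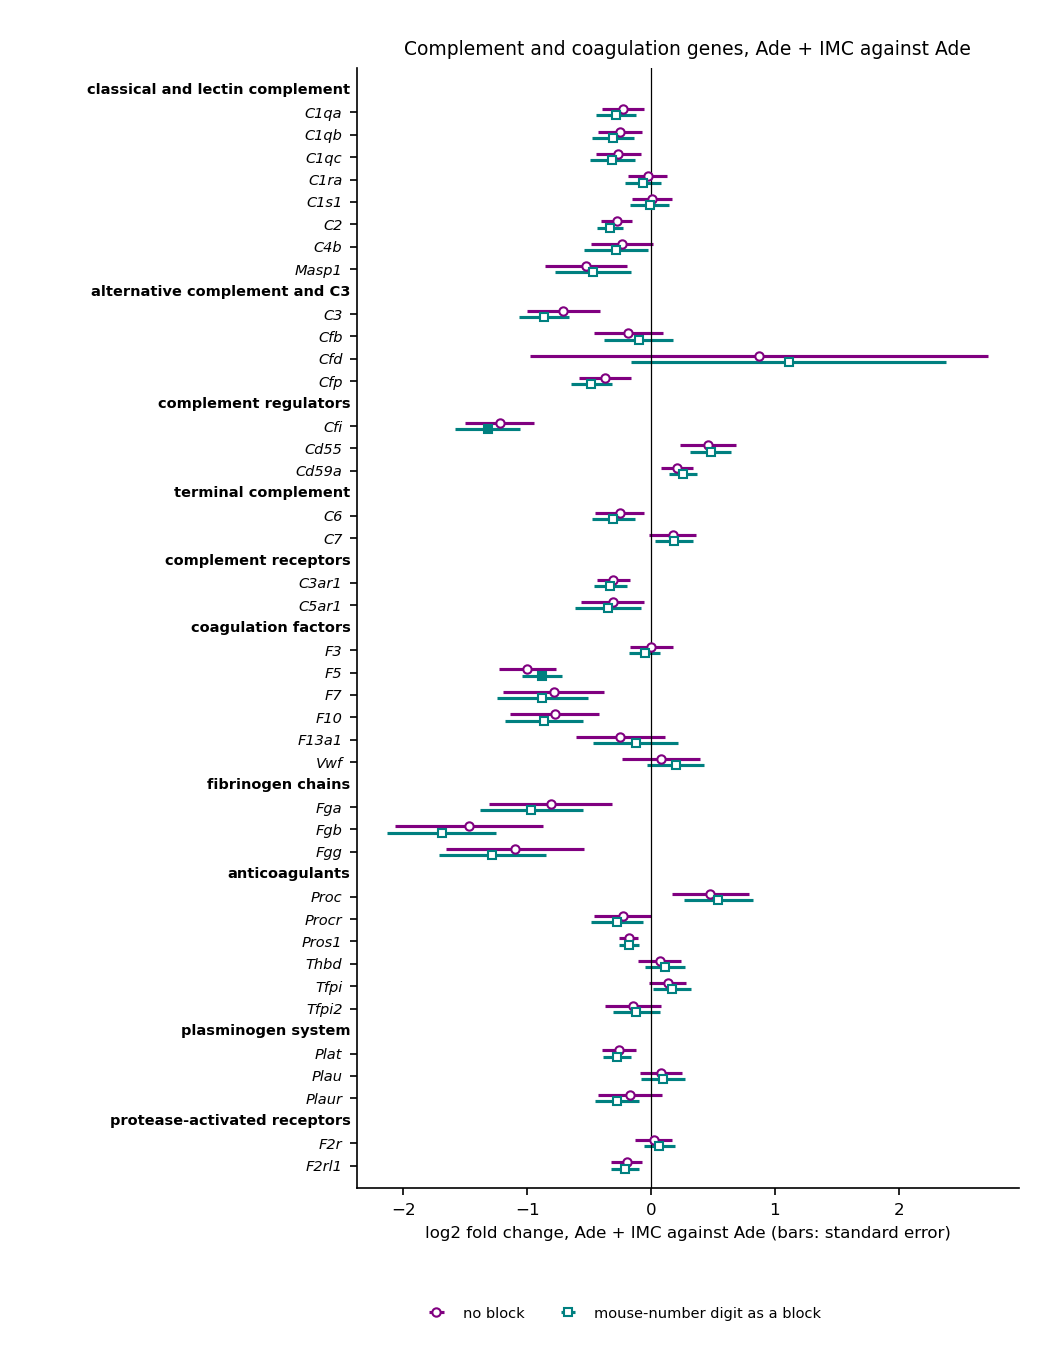
Log2 differences of Ade + IMC against Ade for the 39 tested members with standard errors, without a block (purple circles) and blocked by the leading digit of the mouse numbers (green squares), filled where the adjusted p is below 0.1. Cfi and F5 with the block are the only filled symbols, and the fibrinogen chains lie far left with wide bars.

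F5 had the clearest separation. Its normalized counts were 30.2 to 64.5 in Ade mice and 15.3 to 27.2 in Ade + IMC mice, and it was the 1 member of 39 whose ranges did not overlap, against 0.204% of all genes tested. The log2 difference was -1.0 ± 0.23 without the block (limma, unadjusted p = 0.000741, adjusted p = 0.601), and -0.88 ± 0.16 with it (adjusted p = 0.0602). DESeq2 gave -1.09 ± 0.26 (adjusted p = 0.0377). In CPM the Ade + IMC mice ran from 2.05 through 3.02 to 3.71, below all Con mice as well, so that the difference led away from the Con level. Of the exonic bases of F5, 262 are shared with Gm16548 on the other strand.

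Cfi lay between the Con and Ade levels in Ade + IMC mice, at 9.57 to 34.5 CPM (median 16.6). Its normalized counts were 294.2 ± 85.2 (SD, n = 6) in Ade and 131.7 ± 64.99 (SD, n = 6) in Ade + IMC mice. Mouse 310, at 34.5 CPM, was the 1 Ade + IMC mouse inside the Ade range of 22.7 to 54.8 CPM. The log2 difference was -1.22 ± 0.28 without the block (limma, unadjusted p = 0.00066, adjusted p = 0.601), -1.32 ± 0.26 with it (adjusted p = 0.0627) and -1.16 ± 0.28 in DESeq2 (adjusted p = 0.0396).

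The other 6 members below an unadjusted p of 0.05 without the block were C3, C2, C3ar1, F10, Fgb and Pros1. None of them passed the adjustment in any tool or block run here. C3 was at 387 to 1643 CPM (median 1049) in Ade + IMC mice, with a log2 difference of -0.71 ± 0.29 (limma, adjusted p = 0.715). C3 under the block was just short of the threshold at -0.86 ± 0.20 (adjusted p = 0.102). Fgb was at 3.64 to 35.4 CPM (median 11.8), with a log2 difference of -1.47 ± 0.60 (limma, adjusted p = 0.715). Cfd had a wide error in this comparison, at 0.87 ± 1.85 in limma (adjusted p = 0.945) and 1.94 ± 1.58 in DESeq2 (adjusted p = 0.898). F10 was at 2.43 to 9.79 CPM (median 3.54) and differed by -0.78 ± 0.36 (adjusted p = 0.739). C2 at 22.6 to 30.2 CPM (median 24.6), C3ar1 at 35.9 to 47.1 CPM (median 40.1) and Pros1 at 75.4 to 88.3 CPM (median 81.0) differed by -0.28 ± 0.12, -0.30 ± 0.14 and -0.18 ± 0.08.

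Fga and Fgg were lower on average too, by -0.81 ± 0.50 and -1.10 ± 0.56 on the log2 scale, with Ade + IMC ranges of 33.5 to 267.7 CPM and 21.9 to 175.7 CPM that spanned most of the Ade ranges. The Ade + IMC ranges of the remaining complement members overlapped those of the Ade mice. C1qa was at 172.4 to 297.8 CPM (median 233.1), C1qc at 142 to 243 CPM (median 201), C4b at 33.6 to 119 CPM (median 68.9) and Cfp at 24.4 to 57.3 CPM (median 34.1). C6 at 5.22 to 10.3 CPM (median 7.02), C7 at 16.5 to 25.7 CPM (median 20.9) and C5ar1 at 3.23 to 11.4 CPM (median 8.56) were among them. Cd55 and Cd59a were on average higher than in Ade mice, by 0.46 ± 0.22 and 0.21 ± 0.13 on the log2 scale, and did not pass the test.

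Of the remaining coagulation transcripts in Ade + IMC mice, F7 was at 0.909 to 3.92 CPM (median 1.81) and F13a1 at 1.61 to 7.14 CPM (median 4.28). Proc was at 25.8 to 73.5 CPM (median 48.0), with a log2 difference from Ade of 0.48 ± 0.31. Procr at 6.08 to 16.5 CPM (median 11.1), Plaur at 6.16 to 16.5 CPM (median 12.9) and Plau at 464.4 to 788.7 CPM (median 585.5) differed by -0.23 ± 0.23, -0.17 ± 0.26 and 0.08 ± 0.17. Plat was at 148 to 220.6 CPM (median 194.6), F2r at 78.9 to 129 CPM (median 91.5) and F2rl1 at 62.0 to 77.9 CPM (median 67.8). F3 showed a log2 difference of 0.00 ± 0.17. Of the marker lists, 8 of 10 macrophage and 3 of 3 tubular injury markers were below 0 on the log2 scale, and 8 of 8 tubule and podocyte, 6 of 6 endothelial and 5 of 5 adipocyte markers above it. The other lists were mixed or held few tested genes: 2 of 3 neutrophil, 4 of 7 T and B cell, 2 of 6 fibroblast, 2 of 2 platelet and 2 of 3 hepatocyte markers were below 0. Without the block 0 markers passed an adjusted p of 0.1, and with it 1 did, the collecting duct water channel Aqp2, which was higher (0.80 ± 0.14, adjusted p = 0.0602).

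Ade + IMC mice were last compared with Con mice on whole reads. Of 39 members, 31 were higher and 5 lower, where 30.9% of 14578 genes were higher and 32.3% lower. Leaving out the mice that had 10 CPM or more of Adipoq (211, 212 and 410) left mice 310, 311 and 412 of the Ade + IMC group. Then 28 members were higher: C2 and Cfd no longer passed, and F7 fell under the filter on low counts. Calls over all genes fell as well, from 4504 to 3830 higher and from 4715 to 3315 lower. The median log2 fold change was 1.56 over the members and -0.0157 over all genes. The 5 lower members were Cfb (-1.67 ± 0.21), F5 (-1.95 ± 0.23), Proc (-0.85 ± 0.21), Tfpi2 (-1.35 ± 0.21) and Plau (-0.65 ± 0.15). Cd55 (-0.05 ± 0.17), Cd59a (-0.17 ± 0.13) and Tfpi (0.21 ± 0.15) did not pass. The direction for Cd55 turned with upper-quartile scaling (0.03).

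Side by side, the 2 comparisons with Con, which share those mice, gave log2 fold changes of 5.0 in Ade and 4.36 ± 0.34 in Ade + IMC mice for C3, 4.36 and 4.19 ± 0.33 for C4b, and 2.54 and 1.33 ± 0.28 for Cfi. For the fibrinogen chains they were 2.08 and 1.46 ± 0.46 (Fga), 3.03 and 1.68 ± 0.54 (Fgb), and 3.81 and 2.87 ± 0.53 (Fgg). C7 gave 2.3 and 2.41 ± 0.17, Vwf 1.41 and 1.43 ± 0.33, and F3 1.64 and 1.56 ± 0.10. C2 kept a log2 fold change of 0.31 ± 0.12 in Ade + IMC mice (adjusted p = 0.0408). That call was lost without Con mouse 202 or Con mouse 302 (adjusted p = 0.103 and 0.109). It was also lost without the mice that had 10 CPM or more of Adipoq, where the log2 fold change was 0.34 ± 0.15 (adjusted p = 0.102). F13a1 gave 2.49 and 2.29 ± 0.40, and 1.52 in Ade + IMC mice without those mice. Among the other pathway genes, 9 of 18 complement genes were higher and 4 lower, and 6 of 19 coagulation genes were higher and 10 lower, beside 30.9% higher and 32.3% lower over all genes.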

How the data were processed

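Kidney RNA was extracted with a Qiagen kit and sequenced from Illumina TruSeq libraries. The authors deposited raw counts per gene for Con and Ade mice (21004 genes) and, for Ade and Ade + IMC mice, a signal of counts divided by DESeq2 size factors (21287 genes). The paper's methods name STAR on mm10, and the submitters' processing notes list Trimmomatic 0.39, FastQC 0.11.8, Bowtie2 2.2.5 and HTSeq 0.9.1, so the aligner, and whether counting used strand, are not settled. The authors' own columns of fold changes and p-values were not used. Dividing each normalized column by its step gave whole reads (100% of values above 0 within 0.01 reads), and 0 Ade values differed from the raw table. Each table lists only genes with 5 or more reads over its mice, so levels and the comparison with Con used the 20634 genes in both.

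Ade and Ade + IMC were each tested against Con with edgeR 4.0.16 (filterByExpr, TMM, quasi-likelihood). Ade + IMC was tested against Ade with limma 3.58.1 (trend) on log2(normalized count + 1), at a mean of 10 or more, so fold changes are on that scale and understate low genes. Calls were a Benjamini-Hochberg adjusted p below 0.1 over all genes, in R 4.3.3. Each mouse was 1 sample. Alternatives were DESeq2 1.42.0, other scalings, filters, pseudocounts and thresholds, the mouse-number digit as a block, and leaving out each mouse. Leaving out the 4 mice with 10 CPM or more of Adipoq was chosen after seeing the data. The fits were also run on simulated data in which few genes changed, unlike the comparisons with Con, so nothing is drawn from that run here. Members, lists and motifs were chosen with earlier results of these data known. Values by mouse are given for 29 members: in each list the 3 called ones with the largest change in Ade against Con, and those with an unadjusted p below 0.05, or a call with the block, in Ade + IMC against Ade. Cfb was added to these after its values were seen, as were C8a and F8 outside the member list. Up to 3 called genes are named in each list of other pathway genes. Gene positions are from GENCODE (GRCm38), and upstream sequences from RefSeq.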

Additional observations from a re-analysis of the deposited data

Results flagged for a closer look

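In 9 of 117 groups of values (3 groups of mice for each of 39 members, 7.69%), 1 mouse lay apart from the rest of its group by Dixon's criterion, which chance meets in about 1 of 20. Cfd was at 88.9 CPM in Ade mouse 207 (other Ade mice 0 to 16.9) and at 307 CPM in Ade + IMC mouse 212 (others 0.227 to 111). Masp1 was at 8.56 CPM in Ade mouse 207 (others 1.70 to 4.01). Ade mouse 409 had 111 CPM of Pros1 (others 84.1 to 92.0) and 23.7 CPM of Tfpi (others 12.8 to 16.8). Cfi was at 34.5 CPM in Ade + IMC mouse 310 (others 9.57 to 17.8). C1ra was at 70.4 CPM in Ade + IMC mouse 311 (others 36.5 to 47.1), and F10 at 9.79 CPM in Ade + IMC mouse 211 (others 2.43 to 4.43). C5ar1 was at 2.02 CPM in Con mouse 202 (others 0.774 to 1.08).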

How the results depend on the processing

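In Ade + IMC against Ade, 2 members (Cfi and F5) were called lower with DESeq2, with edgeR and the digit block, and with limma and the digit block, against 0 without them. Over all genes these settings called 21, 51 and 73 higher and 16, 53 and 60 lower, and leaving out the mice with 10 CPM or more of Adipoq called 1 higher. The digit has no stated meaning, so the pairing it makes is not known, and the cause of these gains was not tested. Leaving out each mouse was run for the fits without these settings. It gave 0 calls in Ade + IMC against Ade, where the full fit also gave 0, 30 to 31 members higher and 6 to 7 lower in Ade against Con, and 30 to 31 higher and 5 lower in Ade + IMC against Con. Leaving out the mice with 10 CPM or more of Adipoq took only mouse 207 from Ade against Con. It repeats the fit without that mouse, with 30 members higher and 6 lower, beside 4887 and 4600 of all genes. From Ade + IMC against Con it took mice 211, 212 and 410 together. That gave 28 members higher and 5 lower, beside 3830 and 3315 of all genes. The block changed no member's call in the comparisons with Con. Without the mice with 10 CPM or more of Adipoq, Cfd in Ade + IMC against Con turned to -1.28 and Cd55 to 0.0074. Cd55 was also 0.0311 with upper-quartile scaling, and ran from -0.1434 to 0.0409 on leaving out each mouse, above 0 without Con mouse 201 or Ade + IMC mouse 211, 212 or 310. With no filter on low counts 6 members were lower in Ade + IMC against Con, the added one being Masp2 (-0.91 ± 0.39, adjusted p = 0.0787, and 0.2 in DESeq2). Masp2 had 28 reads in total over the Con mice and 17 over the Ade + IMC mice, and shares exonic bases with Tardbp on the other strand. With no filter Masp2 was not called in Ade against Con (adjusted p = 0.1595), nor Plg in either comparison with Con, and with limma on every gene with a mean above 0 neither Masp2, F2 nor Plg was called in Ade + IMC against Ade. DESeq2 gave several of these no adjusted p.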
